A study of Mus musculus with 4 samples.

Results

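Genes of amino acid uptake and of the Atf4 response were compared between the long-term (LT-HSC) and short-term (ST-HSC) haematopoietic stem cells of mouse bone marrow. The 10 genes were Slc7a1, Slc7a5, Slc7a6, Slc3a2, Slc1a5, Slc38a1, Slc38a2, Asns, Atf4 and Trib3, and every probe set annotated to one of these symbols alone was taken, which gave 21 of the 45037 probe sets on the arrays after control probe sets were set aside. Of these, 19 were bright enough to be tested, and each of the 10 genes had at least 1 of them. The 2 left out were 1 dim probe set of Slc7a1 and 1 of Atf4.

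The study measured RNA on 4 whole-genome Affymetrix arrays, 2 for each cell fraction. LT-HSC were sorted as lineage-negative, cKit+, Sca1+, CD34-, CD135- cells and ST-HSC by the same gate with CD34+. All mice were MxCre- controls on a C57BL/6 background, so they lacked the inducible Cre. Poly(I:C), an artificial double-stranded RNA known to trigger interferon, had been injected 7 times in every mouse. Mice were 7.5 weeks old and killed 4 weeks after the final injection for 3 of the arrays. For the fourth, ST-HSC replicate 3, they were 8.5 weeks old and killed 3 weeks after it. The age and interval of ST-HSC replicate 3 cannot be told apart from that array. In the labels the ST-HSC samples carry a tissue entry that names LT-HSC next to the CD34+ gate, and their titles were followed. The labels do not state that replicates of a fraction came from separate animals or pools, so p-values measure only the spread between these samples, which may be technical.

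Cells import most amino acids through membrane carriers of the solute carrier (Slc) families. When amino acids run short or misfolded protein builds up in the endoplasmic reticulum, kinases phosphorylate the translation factor eIF2 alpha. General protein synthesis then slows while the transcription factor Atf4 is translated more, and Atf4 raises genes of amino acid uptake, amino acid synthesis and tRNA charging. Haematopoietic stem cells are known for a low rate of protein synthesis, which rises in the progenitors that follow them.

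Markers of the sort gate, of other cell types and of cycling were read on the arrays, and the source of their RNA was not tested. Cd34 read 18.3 and 23.5 on the LT-HSC arrays and 841 and 1142 on the ST-HSC arrays, and Flt3 differed by -1.37 on the log2 scale (limma adjusted p = 0.0631). Kit differed by -1.02 (adjusted p = 0.0498), a call that held under 5 of 14 other settings and not without LT-HSC replicate 1 or 2 (0.381 and 0.321), while its other probe set lay at 0.05 (adjusted p = 0.934). All 11 tested plasma cell markers were higher in LT-HSC, with summed intensities of 69697 and 70771 on the LT-HSC arrays and 1825 and 3311 on the ST-HSC arrays. Of 13 cycling genes 11 were higher in ST-HSC, with sums of 6982 and 8207 against 22423 and 25821. Of 11 granulocyte markers 2 were called higher in ST-HSC and 5 were at an unadjusted limma p under 0.05, while all 11 lay below 0. Their sums were 4959 and 1224 in LT-HSC, 8609 on ST-HSC replicate 2 and 61431 on ST-HSC replicate 3. Calls towards LT-HSC and ST-HSC numbered 4 and 0 among 8 B cell markers (also 4 and 0 at an unadjusted p under 0.05), 2 and 1 among 4 T and NK cell markers, and 1 and 1 among 5 erythroid markers. Over all genes, each by its brightest probe set, 7.92% and 6.41% were called in these directions. The normalized log2 means of Cd3g (4.46), Gzma (4.67), Blk (4.93) and Prdm1 (5.02) in ST-HSC lay below the brightness limit of 5.03. These T and NK, B cell and plasma cell markers were thus tested only because they were bright in LT-HSC. No tested marker of these lists read exactly 0. In such bulk samples fewer cells of a type and less RNA per cell cannot be told apart.

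**Figure D1:**
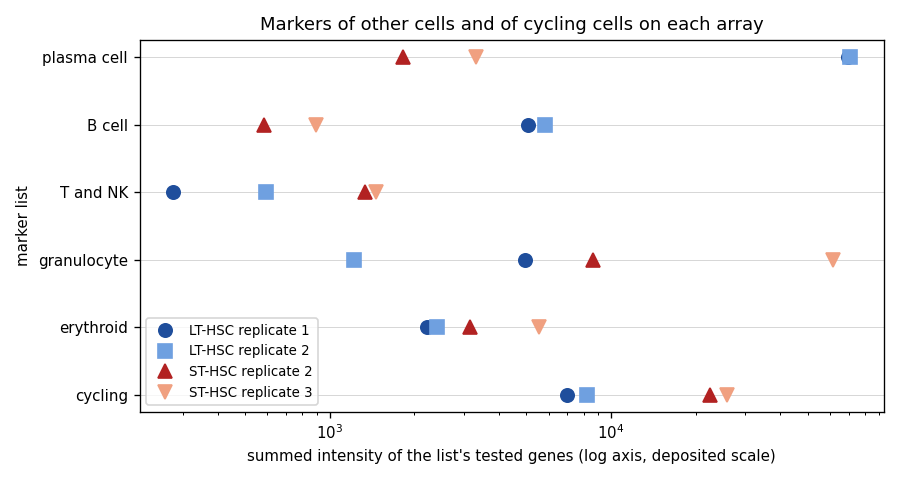
Summed intensity of the tested genes of 6 marker lists on each array (log axis, deposited linear scale); each symbol is 1 array. Plasma cell and B cell sums were higher on both LT-HSC arrays, cycling sums were higher on both ST-HSC arrays, and the granulocyte sum of ST-HSC replicate 3 (61431) stood above the other 3 arrays.

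Of the 19 tested probe sets, 1 was higher in LT-HSC, 0 were higher in ST-HSC and 18 did not pass (limma, Benjamini-Hochberg adjusted over all 27022 tested probe sets, threshold 0.05). The called probe set was that of Slc3a2. Over all tested probe sets 12.2% were called, 6.72% towards LT-HSC and 5.48% towards ST-HSC, so the share among the members was no larger than that of the array as a whole. At an unadjusted p under 0.05 there were 6 member probe sets higher in LT-HSC, from the 4 genes Slc3a2, Trib3, Slc7a1 and Atf4, and 0 higher in ST-HSC, where 30.4% of all tested probe sets were under that limit, 13.7% towards LT-HSC and 16.7% towards ST-HSC. The 6 of 19 in all is thus close to the share over the array. In 12 of the 19 both LT-HSC arrays lay above both ST-HSC arrays, in 4 the ST-HSC arrays lay above, and 3 overlapped, while over the array 61.1% of probe sets were separated, 26.9% and 34.2% in these directions. The median difference of the tested member probe sets was 0.52, LT-HSC minus ST-HSC on the log2(intensity + 16) scale, beside a median of -0.08 over all tested probe sets. All differences below are on this scale, where the added 16 makes folds of dim probe sets too small.

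**Figure D2:**
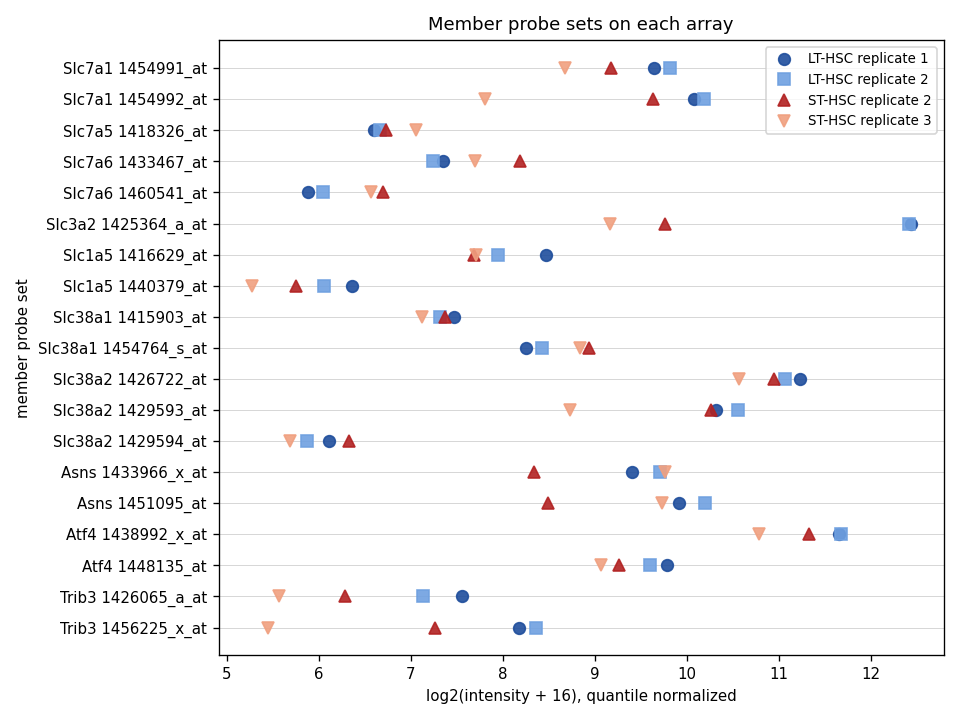
Quantile normalized log2(intensity + 16) of the 19 tested member probe sets; each symbol is 1 array, and levels are to be compared along a line, not between lines. The LT-HSC arrays of Slc3a2 lay together at the right of both ST-HSC arrays, and for Slc7a1, Slc38a2 and Trib3 ST-HSC replicate 3 lay lowest.

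Slc3a2 encodes the CD98 heavy chain, the partner that carries several Slc7 light chains to the cell surface. It was 7.79-fold higher in LT-HSC. Its single probe set (1425364_a_at) read 6092 and 5860.4 on the LT-HSC arrays and 797 and 564 on the ST-HSC arrays. The LT-HSC arrays were nearly equal, and the lower of them was far above the higher ST-HSC array. The normalized log2 means were 12.42 ± 0.02 (SD, n = 2) in LT-HSC and 9.46 ± 0.43 (SD, n = 2) in ST-HSC, a difference of 2.96 (SE 0.24, 95% interval 2.39 to 3.53, limma adjusted p = 0.00109). The call held under all 14 other settings tried, with differences from 2.72 to 3.28 and adjusted p-values up to 0.0383. With no second probe set, the value rests on 1 set of probes. The plasma cell markers moved with it, 11 of 11 higher in LT-HSC with the sums given above, and their part in the Slc3a2 difference was not tested.

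The values of the light chains that pair with Slc3a2 lay on both sides of 0. Slc7a5 (LAT1), the carrier of large neutral amino acids such as leucine, read 67.8 and 90.2 on the LT-HSC arrays and 103 and 116 on the ST-HSC arrays, a difference of -0.26 (95% interval -0.99 to 0.48, limma adjusted p = 0.61). Both ST-HSC arrays were higher, by less than the error of the difference. Slc7a6 (y+LAT2), which exchanges cationic for neutral amino acids, read 130 and 138 on the LT-HSC arrays and 289 and 189 on the ST-HSC arrays on the brighter of its probe sets, and 34.1 and 55.1 against 101 and 76.9 on the dimmer. Both probe sets had the ST-HSC arrays above the LT-HSC arrays, with differences of -0.65 (95% interval -1.40 to 0.11) and -0.67 (95% interval -1.39 to 0.04), and neither passed (limma adjusted p = 0.222 and 0.186). Without ST-HSC replicate 3 the brighter one lay at -0.89. Slc7a7 (y+LAT1), a light chain from the list of other transporters, read 601 and 581 on the LT-HSC arrays and 80.4 and 83.4 on the ST-HSC arrays and was 6.41-fold higher in LT-HSC (2.68, SE 0.29, limma adjusted p = 0.00337). Slc7a7 no longer passed once LT-HSC replicate 1 or 2 was left out (adjusted p = 0.0777 and 0.0706). Slc7a8 (LAT2) differed by -0.88 and did not pass (adjusted p = 0.134), and the probe sets of Slc7a10 and Slc7a11 were too dim to be tested. Whether Slc3a2 differed more than its light chains was not tested.

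Slc7a1 (CAT1), the main carrier of arginine and lysine, had both LT-HSC arrays above both ST-HSC arrays on its bright probe sets, which were designed on the same sequence entry. Probe set 1454991_at read 822 and 905 on the LT-HSC arrays and 534 and 392 on the ST-HSC arrays (difference 0.81, SE 0.28, limma adjusted p = 0.104). Probe set 1454992_at read 1141 and 1192 against 726 and 207 (difference 1.41, SE 0.55, limma adjusted p = 0.138). The LT-HSC pair differed little, while ST-HSC replicate 3 lay below ST-HSC replicate 2 by 0.50 and 1.82 on the normalized log2 scale. With either ST-HSC array left out both probe sets passed, with differences of 0.57 and 0.51 without replicate 3 (adjusted p = 0.024 and 0.0214) and of 1.10 and 2.40 without replicate 2 (adjusted p = 0.000356 and 4.31e-07). The single ST-HSC array left in such a fit is assumed to vary like the LT-HSC pair. The dim probe set of Slc7a1 read from 5.91 to 13.4 on all 4 arrays and was not tested.

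No probe set of the glutamine carriers passed with all 4 arrays. Slc1a5 (ASCT2), an exchanger of neutral amino acids, read 329 and 233 on the LT-HSC arrays and 208 and 192 on the ST-HSC arrays (difference 0.52, 95% interval -0.23 to 1.26, limma adjusted p = 0.313). Its dimmer probe set lay at 0.70 (adjusted p = 0.208), so both lay above 0 without passing. Slc38a1 (SNAT1), a sodium-coupled importer of glutamine, gave unlike values on its probe sets. On 1454764_s_at it read 279 and 327 on the LT-HSC arrays and 467 and 443 on the ST-HSC arrays (difference -0.55, 95% interval -1.19 to 0.09, limma adjusted p = 0.219). On 1415903_at the groups overlapped, with 144 and 146 against 167 and 121 (difference 0.15, adjusted p = 0.778). By the array's naming, probes of an s_at set can match more than one transcript. Slc38a2 (SNAT2), the member of the same family that amino acid shortage is known to raise, read 2727 and 2289 on the LT-HSC arrays and 1723 and 1435 on the ST-HSC arrays on its brightest probe set (difference 0.39, 95% interval -0.10 to 0.88, limma adjusted p = 0.246). Its probe set 1429593_at read 1367 and 1579 against 1103 and 410, a difference of 0.94 (adjusted p = 0.229) in which ST-HSC replicate 3 stood 1.53 below replicate 2. Without ST-HSC replicate 2 the differences of these probe sets were 0.59 and 1.75, and without ST-HSC replicate 3 that of 1429593_at was 0.17. The dim probe set 1429594_at overlapped between the groups (-0.02, adjusted p = 0.981).

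**Figure D3:**
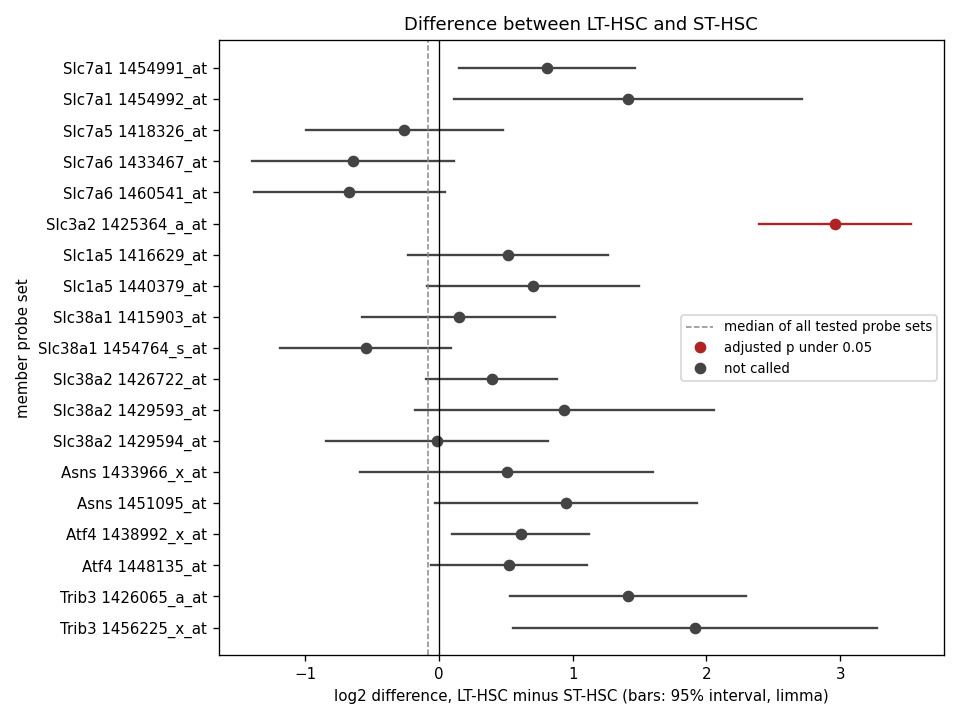
Log2 difference, LT-HSC minus ST-HSC, of the 19 tested member probe sets with 95% intervals from limma; red marks the call at an adjusted p under 0.05 and the dashed line the median of all tested probe sets (-0.08). Slc3a2 lay at 2.96, the Trib3 probe sets at 1.41 and 1.91, and the Slc7a5 and Slc7a6 probe sets below 0.

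Atf4, the transcription factor of the response, is controlled mainly in translation, which an array does not measure. Its RNA read 3661 and 3585 on the LT-HSC arrays and 2288 and 1659 on the ST-HSC arrays on probe set 1438992_x_at (difference 0.61, SE 0.22, 95% interval 0.10 to 1.12, limma adjusted p = 0.113). On probe set 1448135_at it read 915 and 774 against 569 and 527 (difference 0.52, SE 0.25, adjusted p = 0.202). Both had the LT-HSC arrays above the ST-HSC arrays, and neither passed. The first passed with no normalization between arrays (0.89, adjusted p = 0.0304), with upper quartile scaling (1.05, adjusted p = 0.0421), without ST-HSC replicate 2 (0.87, adjusted p = 2.51e-05) and without ST-HSC replicate 3 (0.35, adjusted p = 0.0214). The second passed without ST-HSC replicate 2 (0.64, adjusted p = 0.012). By the array's naming, some probes of an x_at set can bind other transcripts.

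Trib3, a pseudokinase that Atf4 induces and that damps Atf4 signalling in turn, had the largest difference after Slc3a2, on 1 of its 2 probe sets. Probe set 1426065_a_at read 155 and 128 on the LT-HSC arrays and 71.5 and 31.9 on the ST-HSC arrays (difference 1.41, SE 0.37, 95% interval 0.53 to 2.30, limma adjusted p = 0.0531). Probe set 1456225_x_at read 262 and 314 against 154 and 28.6 (difference 1.91, SE 0.57, adjusted p = 0.0751). Both LT-HSC arrays were above both ST-HSC arrays on either probe set, and ST-HSC replicate 3 was the lowest array on both. These values just missed the threshold: 1426065_a_at passed under 6 of the 14 other settings and 1456225_x_at under 5. Among these were array centring on the median (1.38, adjusted p = 0.0388, and 1.90, adjusted p = 0.0303) and each ST-HSC array left out, with differences of 1.05 and 1.01 without replicate 3 and of 1.76 and 2.83 without replicate 2.

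Asns, asparagine synthetase, is a classical target of Atf4. Probe set 1451095_at read 1007 and 1203 on the LT-HSC arrays and 357 and 833 on the ST-HSC arrays, a difference of 0.95 (SE 0.41, 95% interval -0.03 to 1.93, limma adjusted p = 0.175). Probe set 1433966_x_at read 682 and 840.5 against 323 and 852, a difference of 0.51 (adjusted p = 0.498) with overlapping groups. Here the ST-HSC arrays differed the other way from Slc7a1, Slc38a2 and Trib3, with replicate 3 above replicate 2 by 1.24 and 1.42. Without ST-HSC replicate 3 the differences were 1.57 and 1.21, and without ST-HSC replicate 2 they were 0.34 and -0.21. Each of these fits leaves the spread between the ST-HSC arrays unmeasured. The granulocyte sum separated the same pair of ST-HSC arrays (8609 on replicate 2 and 61431 on replicate 3), and its part in these replicate differences was not tested.

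Over the members, 9 probe sets were higher in LT-HSC without ST-HSC replicate 2, where 32.5% of all tested probe sets were called, and 8 were higher and 1 lower without ST-HSC replicate 3, where 22.2% were called. These shares count both directions. Probe sets of Slc3a2, Trib3, Slc7a1 and Atf4 were called higher in both fits. The fits share the LT-HSC arrays and take their spread from these alone, so their agreement is not a repeat. The share of all probe sets called in both was not counted. Without LT-HSC replicate 1 or 2, only Slc3a2 among the members passed, and 1.54% and 1.58% of all probe sets were called. The fit without ST-HSC replicate 3 is also the comparison within mice of one age and one interval after the injections.

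**Figure D4:**
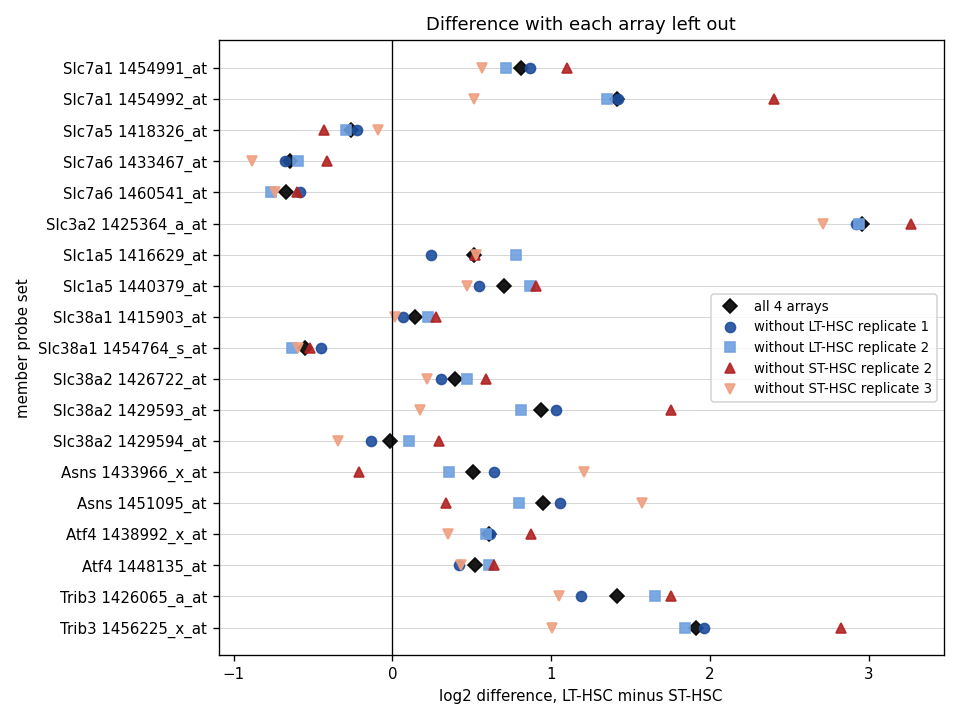
Log2 difference, LT-HSC minus ST-HSC, of each tested member probe set with all 4 arrays (black diamonds) and with each array left out in turn. Slc3a2 stayed between 2.72 and 3.27, while Slc7a1 1454992_at ran from 0.51 to 2.40 and Asns 1433966_x_at from -0.21 to 1.21, depending on the ST-HSC array kept.

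The wider pathway was read from 5 lists, each gene by its brightest probe set, with 14.3% of 12832 genes called on this basis (7.92% higher in LT-HSC, 6.41% higher in ST-HSC) and a median of -0.08 over them. At an unadjusted p under 0.05 there were 33.1% of all genes, 15.1% towards LT-HSC and 18.0% towards ST-HSC, and the unadjusted counts of the lists are to be read against these shares. The shares over all probe sets with an array left out are given above. List results from those fits are to be read against them. The 11 plasma cell markers, all higher in LT-HSC (69697 and 70771 against 1825 and 3311 summed), moved with every call towards LT-HSC given here. Their part in these calls, and in the member differences towards LT-HSC, was not tested. Of 25 tested genes known as further targets of Atf4, 3 were higher in LT-HSC, 2 in ST-HSC and 20 did not pass, with a median of 0.40. Their unadjusted counts under 0.05 were 8 towards LT-HSC and 4 towards ST-HSC. Chac1, which degrades glutathione, was 25.3-fold higher in LT-HSC (1123 and 816 against 17.1 and 27.2, difference 4.66, limma adjusted p = 0.000619). Herpud1, a gene of protein disposal at the endoplasmic reticulum, was 8.74-fold higher (3828 and 4133 against 493 and 292, difference 3.13, adjusted p = 0.0018). Atf5, a related transcription factor, differed by 1.46 (adjusted p = 0.048), a call that held under 6 of the 14 other settings and was lost, among others, with no normalization (adjusted p = 0.0613) and no filter (adjusted p = 0.0735). Psat1, an enzyme of serine synthesis, differed by -1.21 (adjusted p = 0.0294) and Vldlr, a lipoprotein receptor, by -1.87 (adjusted p = 0.0338). Calls of this list thus lay in both directions, 3 and 2 of 25 beside 7.92% and 6.41% over all genes. The called counts of all 5 lists are to be read against these shares, and no list was tested against them. All 5 tested probe sets of Vldlr and both of Psat1 were called higher in ST-HSC. The Psat1 call was lost with median centring (adjusted p = 0.0874), upper quartile scaling (adjusted p = 0.0893) and no trend (adjusted p = 0.0591). This list held more calls in both directions with either ST-HSC array left out, and fewer with either LT-HSC array left out. The share over all probe sets moved likewise.

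Of 22 other amino acid transporters tested, 3 were higher in LT-HSC, 2 in ST-HSC and 17 did not pass, with a median of 0.31 (at an unadjusted p under 0.05, 5 and 5). Besides Slc7a7, these were Slc1a4 (ASCT1, a carrier of serine and alanine) at 2.11 (adjusted p = 0.0111) and Slc6a9 (GlyT1, a glycine carrier), which read 233 and 186 against 43.2 and 44.0 (adjusted p = 0.0123). Slc1a4 read 123 and 109 against 20.9 and 13.9, and its ST-HSC mean of 4.99 lay below the brightness limit of 5.03, so it was tested only because it was bright in LT-HSC. Slc16a10 (TAT1, a carrier of aromatic amino acids) lay at -1.49 (adjusted p = 0.0252), with -0.49 (adjusted p = 0.361) on its other probe set. Slc43a3, now known for purine base transport, lay at -1.44 (adjusted p = 0.0498), and its call held under 7 of the 14 other settings. Calls of this list rose in both directions without ST-HSC replicate 2, and only towards LT-HSC without replicate 3. None was left with either LT-HSC array left out. The share over all probe sets also rose in the former fits and fell in the latter. Of 19 cytosolic aminoacyl-tRNA synthetases, which load tRNAs with their amino acids, 2 were higher in LT-HSC and 0 in ST-HSC, with a median of 0.28 (at an unadjusted p under 0.05, 7 and 4). They were Aars (1.25, adjusted p = 0.0273) and Sars (1.23, adjusted p = 0.0282), each on 1 of its 2 tested probe sets. Nars, not counted among them, lay at 1.31 on its brighter probe set (adjusted p = 0.0727) and was called on its dimmer one (1.05, adjusted p = 0.0373). Farsa lay at -1.44 (adjusted p = 0.0569) and Hars at -0.93 (adjusted p = 0.0944). These counts of 2 and 0 became 4 and 1 with no normalization or median centring, 5 and 1 with upper quartile scaling, 3 and 1 with array weights, 3 and 0 with the 60th percentile filter or no trend, and 0 and 0 with either LT-HSC array left out. With either ST-HSC array left out both counts were larger, as was the share of all probe sets called.

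Of 14 genes around eIF2 alpha, 2 were higher in LT-HSC and 0 in ST-HSC, with a median of -0.08 (at an unadjusted p under 0.05, 2 and 3). Eif2ak3, the kinase PERK of the endoplasmic reticulum, differed by 1.67 (383 and 509 against 138 and 133, adjusted p = 0.0181) on 1 of its 2 tested probe sets. Dnajc3, an endoplasmic reticulum co-chaperone also known as an inhibitor of such kinases, differed by 3.25 (adjusted p = 0.000885) and was called on 2 of 4. Eif2ak4, the kinase GCN2 that senses uncharged tRNA, lay at -0.84 (adjusted p = 0.115). Eif2b5, a subunit of the exchange factor of eIF2, lay at -0.83 (adjusted p = 0.131), while a dimmer probe set of it was called in the other direction (1.45, adjusted p = 0.0342). Gcn1 lay at 0.68 (adjusted p = 0.335) on its brightest probe set. Of its 4 tested probe sets 1 was called, higher in LT-HSC (2.10, adjusted p = 0.0135). More genes of this list were called with either ST-HSC array left out and fewer with either LT-HSC array left out, as over all probe sets. Of 31 genes through which mTORC1 senses amino acids, limma called 0 in either direction, with a median of -0.10, and at an unadjusted p under 0.05 there were 1 higher in LT-HSC and 3 in ST-HSC. The absence of calls did not hold in every setting, and 1 and 0 genes were called with upper quartile scaling. With either ST-HSC array left out there were calls in both directions, while the share over all probe sets also rose. Seh1l lay at -0.86 (adjusted p = 0.0791) and Sesn2, an Atf4 target and leucine sensor, at 1.50 (adjusted p = 0.109). Of the 14 genes called in the 5 lists, 3 kept the call without LT-HSC replicate 1 (Chac1, Herpud1 and Dnajc3) and 2 without LT-HSC replicate 2 (Chac1 and Dnajc3). The others had adjusted p-values from 0.0777 to 0.364 and from 0.0561 to 0.252 in these fits. Slc43a3 and Atf5 also lost it without ST-HSC replicate 3 (adjusted p = 0.0545 and 0.0622).

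**Figure D5:**
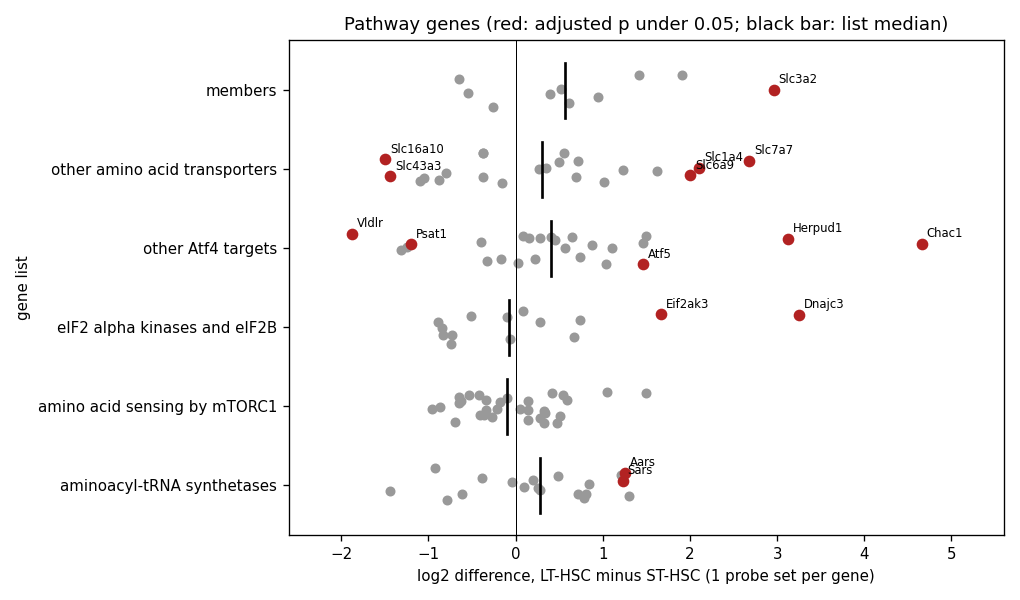
Log2 difference, LT-HSC minus ST-HSC, of each tested gene in the members and 5 pathway lists, 1 probe set per gene; red points passed the threshold and are named, and black bars are list medians. Medians ran from -0.10 for amino acid sensing by mTORC1 to 0.56 for the members, and calls lay on both sides of 0 among transporters and Atf4 targets.

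Atf4 binds, with C/EBP partners, an element of the form TGATGNAAN. RefSeq start windows (GRCm38.p6, from 250 bases before to 50 after a start) were searched for it on both strands. A window was held for 7 of the 10 member genes, and 2 of them, Asns and Trib3, had a match. Both are named above as targets of Atf4. Over the whole set, 4.5% of genes and 3.95% of the 32851 windows had one. The windows of Slc3a2, Slc7a1, Slc7a6, Slc38a2 and Atf4 had none. The match of Asns, shown because this gene is a textbook case of the element, lay from 23 to 15 bases before the start, in the 100 bases upstream of it (chr6:7693210-7693309, minus strand; capitals mark the match).
Asns: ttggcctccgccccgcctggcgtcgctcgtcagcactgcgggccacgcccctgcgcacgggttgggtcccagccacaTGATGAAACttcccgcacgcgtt

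Of the 14 called genes of the pathway lists, 13 had windows and 6 had a match, beside 4.5% of all genes with a window. The lists include genes chosen as known targets of Atf4, and matches among their uncalled genes were not counted. The 6 of 13 therefore cannot be tied to the calls. Some genes had several windows, among them Slc7a7 with 5, of which 2 had a match, and more windows give more room for a match. The sixth of these genes, Slc7a7, had its matches on the strand of the gene, as did Asns. The matches of Trib3 and of the other 5 (for Aars, 1 of 2), picked after the matches were seen and all on the opposite strand, are set side by side with 8 bases on either side, each 5′ to 3′ on the strand of its gene, with the match in capitals.
Trib3 (chr2:152344031-152344055, minus strand): agctcaggTTTACATCAgccgggcg
Chac1 (chr2:119351040-119351064, plus strand): tccctgccGTTGCATCActcctgcc
Herpud1 (chr8:94386308-94386332, plus strand): cacggcggGTTGCATCAgcccgcac
Aars (chr8:111033721-111033745, plus strand): tcttgagcATTGCATCAgccgagcc
Slc1a4 (chr11:20332702-20332726, minus strand): cctcctgcGTTGCATCAtctccagc
Vldlr (chr19:27216811-27216835, plus strand): cagcaataGTTGCATCAgcgctcct
Chac1, Herpud1, Slc1a4 and Vldlr carried the same letters, GTTGCATCA. The first 3 were higher in LT-HSC and Vldlr was lower, so genes with the same match differed in direction. A match is a description of these letters and not of a bound site.

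Over the 4 arrays, the genes whose centred log2 values lay closest to those of Slc3a2, by Euclidean distance, were Man1a, a mannosidase of the Golgi (distance 0.18), 5830428M24Rik (0.19) and Fkbp2, a prolyl isomerase of the endoplasmic reticulum (0.19). Their differences were 2.80, 2.78 and 2.94. Closest to the dimmer Slc7a6 probe set, the member of smallest adjusted p on the ST-HSC side, were Rbbp4, a histone-binding protein (0.027), Pot1a, a telomere protein (0.049), and Mapk1ip1l (0.052), with differences of -0.68, -0.72 and -0.71.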

How the data were processed

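The deposited values are linear intensities, 1 per probe set and array. The authors extracted RNA with Trizol, ran 2 amplification rounds and made biotin-labelled target, per the labels' protocols. How the authors summarised probes, corrected background or scaled arrays is not given in the sources used here. Of 45101 probe sets, 64 controls were left out. Array medians ran from 19.1 to 28.3, so log2(intensity + 16) was quantile normalized. Probe sets with a mean above the 40th percentile (27022) were fitted with limma 3.58.1 in R 4.3.3 (lmFit, eBayes with trend, 2 residual and 4.84 prior degrees of freedom). P-values were Benjamini-Hochberg adjusted over all of them. The procedure was tested on simulated data. Arrays carry no counts, and their number limits the precision. With 2 arrays against 2 an exact permutation test cannot go below p = 0.33, so none was run.

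The supplied platform annotation gave 1 symbol to 34958 probe sets and several to 932, and all 10 member symbols matched RefSeq (GRCm38.p6). Members and lists were chosen with earlier results of these data known. Named are all member probe sets, up to 4 called genes of smallest p per list and direction (where none passed, up to 2 of smallest p), the sort markers, and the 3 genes most like the leading member in each direction. The Sca1 gene was not analysed here, and 1 further detail of the genotype is not reported here. Slc7a8, Slc7a10 and Slc7a11 were named for completeness after their values were seen. Alternatives were 3 other normalizations, 2 pseudocounts, 2 filters, 3 spread models and each array left out.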

Additional observations from a re-analysis of the deposited data

How the results depend on the processing

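Slc3a2 kept its direction and its call under all 14 other settings. Of all tested probe sets, 12.2% were called in either direction in the main comparison. This share was 12.0% with no normalization, 15.1% with median centring and 14.6% with upper quartile scaling. With the 60th percentile filter it was 17.2%, with array weights 13.5% and with no filter 5.52%. The member counts are to be read against these shares. The count of member probe sets higher in LT-HSC, 1 in the main comparison, was 2 with no normalization, 4 with median centring, 5 with upper quartile scaling, 2 with the 60th percentile filter and 3 with array weights. It was 1 with the other pseudocounts, with no filter, with no trend and with a robust trend. With 1 array left out it ran from 1 to 9, and the count higher in ST-HSC from 0 to 1. Over all probe sets, 1816 were higher in LT-HSC (from 401 to 4247 with an array left out) and 1480 in ST-HSC (from 13 to 4527). The sign turned for the dim Slc38a2 probe set 1429594_at (0.11 without LT-HSC replicate 2, and from -0.34 to 0.29 over the arrays left out) and for Asns 1433966_x_at (from -0.21 to 1.21). No value of the turned sign was called. The cause was not tested. No paired analysis was possible because the groups share only 1 replicate number, replicate 2.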
